A study of Mus musculus with 2 samples.

Results

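The genes described here are p53 and 9 genes around it: Trp53, its relative Trp73, the inhibitors Mdm2 and Mdm4, the cell-cycle targets Cdkn1a and Ccng1, the death targets Bax, Bbc3 and Pmaip1, and the survival gene Bcl2l1. They were taken by symbol from gene tables of 55536 genes, of which 22028 are protein-coding, and all 10 symbols were found. PolyA plus RNA-seq was made from the embryonic facial prominence, the tissue from which the face forms, of B6NCrl mouse embryos of mixed sex at 12.5 days. The 2 replicates pooled 120 and 88 embryos, and per the labels their cDNA was made with oligo-dT primers, ERCC spike-ins and Nextera tagmentation. Both libraries are labelled as healthy tissue of 1 strain and 1 age, so they form 1 group and hold no comparison of conditions. Each pool mixes many embryos and all cell types of the prominence.

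The p53 protein is a transcription factor that is made continuously and degraded quickly. Mdm2 is the ubiquitin ligase that marks it for degradation, Mdm4 is a relative that blocks its activation domain, and damage or ribosomal stress releases p53 from both. Active p53 raises Mdm2 itself, cell-cycle inhibitors and death genes, and neural crest cells and the face that they build are known to be sensitive to excess p53 activity. RNA levels do not show how much p53 protein is present or active.

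Levels are deposited TPM values (a length-corrected share of all transcripts), so that genes can be compared with each other. Expected counts (estimated reads per gene, which need not be whole) summed over genes to 27887968 in replicate 1 and 39819334 in replicate 2. All 10 genes were detected, meaning at or above 1 TPM in each library, as were 60.7% of all protein-coding genes. All 6 markers of facial mesenchyme (Prrx1, Prrx2, Twist1, Msx1, Alx1, Pdgfra) were detected too, with summed TPM of 812 and 858. In bulk tissue, fewer cells of a type and less RNA per cell cannot be told apart.

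The 10 genes spanned from 174 to 1.49 TPM. In descending order of mean TPM they were Bax, Trp53, Bcl2l1, Mdm2, Cdkn1a, Mdm4, Ccng1, Bbc3, Pmaip1 and Trp73. The values of neighbours did not overlap, except for Mdm2 with Cdkn1a, Cdkn1a with Mdm4, and Bbc3 with Pmaip1. These 3 pairs cannot be ordered within the spread of both replicates. The top of the order thus held an effector of the mitochondrial death pathway, p53 itself and the survival gene that restrains the effector, while the death activators Bbc3 and Pmaip1 stood near the bottom.

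**Figure D1:**
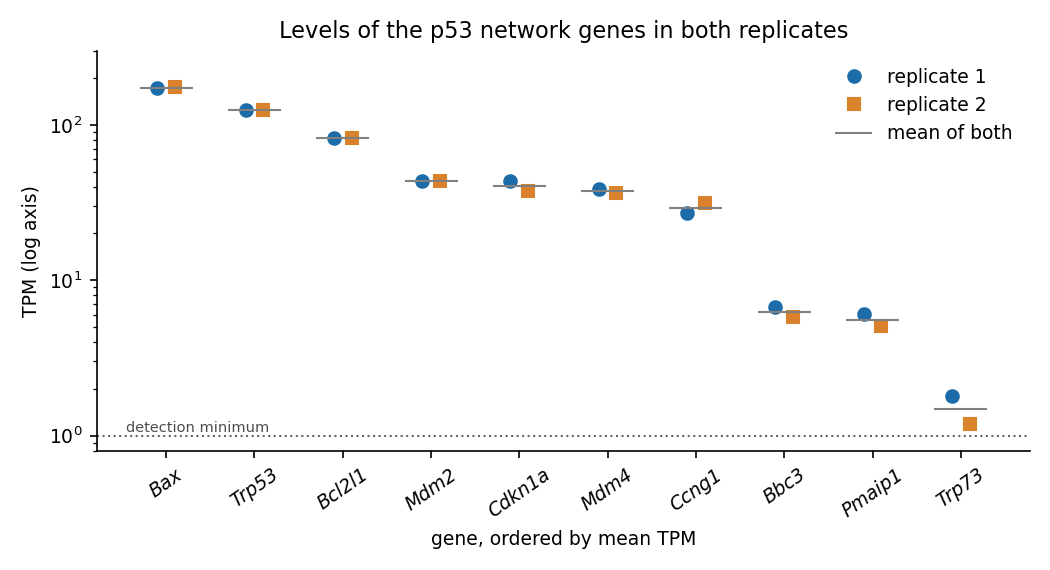
TPM (log axis) of each gene in replicate 1 (circles) and replicate 2 (squares), with the mean of both as a line and the detection minimum of 1 TPM dotted. The replicates lie close together for Bax, Trp53 and Bcl2l1, and Trp73, at 1.80 and 1.18 TPM, lies just above the minimum.

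Trp53 (chr11:69580359-69591873, plus strand, mm10) encodes p53. Its level was 124.48 TPM in replicate 1 and 125.5 TPM in replicate 2, a mean of 125 ± 0.721 (SD, n = 2). The level was nearly the same in both pools and lay above that of 90.7% of detected protein-coding genes. The gene was backed by expected counts of 3842 and 5626. A processed pseudogene copy, Trp53-ps on chromosome 17, received expected counts of 28 and 60.

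Trp53 transcripts differ at their last splice junction. In an alternative form, known in mouse for a protein that lacks the usual C-terminal tail, splicing joins 96 bases earlier and reads bases of the intron to a stop that lies before the standard junction. Both ends are shown because the following shares turn on them. The 15 bases of the preceding exon are in lower case, the coding part of the last exon is in capitals, and the stop codon follows in lower case. The sequences are from the GENCODE M21 models Trp53-201 and Trp53-202, and their last coding parts lie at chr11:69591350-69591428 and chr11:69591254-69591305.
Trp53 standard end: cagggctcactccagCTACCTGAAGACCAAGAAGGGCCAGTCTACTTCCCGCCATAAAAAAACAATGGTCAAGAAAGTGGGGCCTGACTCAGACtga
Trp53 alternative end: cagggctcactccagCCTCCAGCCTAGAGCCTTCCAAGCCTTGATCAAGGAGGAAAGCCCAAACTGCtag

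The standard end carried 75.4% of Trp53 abundance in replicate 1 and 81.3% in replicate 2. The alternative end carried 18.8% and 16.5%, with expected counts of 743 and 931. Both pools therefore held the alternative end as a minor form of the gene, at a mean of 17.6% ± 1.63 (SD, n = 2). Its models encode 378 and 381 codons, against 387 and 390 for the models of the standard end. The 387-codon and 390-codon models share their exons but for 1 base at the 3' end and use neighbouring start codons, and the split between them is not resolved. The shorter took 70.7% and 73.8% by maximum likelihood but 47.5% and 47.6% by posterior mean.

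Trp73 (chr4:154056253-154140208, minus strand) encodes p73, a p53 relative known from Cajal-Retzius neurons and multiciliated cells. Its level was 1.80 TPM in replicate 1 and 1.18 TPM in replicate 2, from expected counts of 155 and 134. Replicate 1 was the higher and both values lay near the detection minimum, above those of only 2.71% of detected protein-coding genes. The TPM ratio of Trp73 to Trp53 was 0.0145 and 0.00940. Trp63, the other relative and a regulator of surface epithelium, stood between them at 20.2 and 19.7 TPM.

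The p73 gene has an upstream start, giving the TA form with the activation domain, and an internal start 43035 bases further on, giving the DeltaN form that lacks the domain and opposes p53. The first 39 coding bases of each, in capitals, show that the proteins begin differently. They are from GENCODE M21 models Trp73-204 and Trp73-205, at chr4:154104857-154104895 and chr4:154096894-154096932.
Trp73 upstream start: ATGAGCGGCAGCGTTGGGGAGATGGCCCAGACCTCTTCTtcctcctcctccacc
Trp73 internal start: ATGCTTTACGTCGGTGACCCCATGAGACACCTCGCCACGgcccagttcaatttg

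Models with the internal start carried 90.3% of Trp73 abundance in replicate 1 and 81.9% in replicate 2, and those with the upstream start 9.7% and 9.5%. The internal start thus led in both pools. As a share of the 155 and 134 counts, the internal start had 89.7% (exact binomial 95% interval 83.8 to 94.0) and 88.1% (81.3 to 93.0). These intervals cover counting error but not the division of reads between models. Posterior mean estimates, which give weight to models with few reads, lowered the internal share to 75.4% and 66.5% and raised the upstream share to 17.1% and 18.6%. The size of the share therefore depended on the estimate at this depth, while the order of both starts did not.

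Mdm2 (chr10:117688875-117710758, minus strand) encodes the ligase that degrades p53. It reached 43.21 TPM in replicate 1 and 43.72 TPM in replicate 2, a mean of 43.5 ± 0.361 (SD, n = 2). Its TPM ratio to Trp53 was 0.347 in replicate 1 and 0.348 in replicate 2. The ratio thus differed little between the pools.

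Mdm2 is known to have a constitutive promoter before exon 1 and a second one, used by p53, in the intron after it. The full coding model from exon 1, Mdm2-201 with 489 codons, carried 73.3% and 75.1% of the abundance. Models starting in or before exon 2, near the p53-driven promoter, carried 5.70% and 2.48%, from expected counts of only 18 and 17. By posterior mean they carried 11.0% and 8.31%, and under release M4 their counts were 35 and 80. None of these models is annotated with the full coding region, so reads of full-length RNA from the second promoter would be assigned mostly to the exon 1 model. The shares therefore do not measure the use of either promoter.

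Mdm4 (chr1:132959484-133030561, minus strand) encodes the relative of Mdm2 that blocks p53 without degrading it. Its level was 38.52 TPM in replicate 1 and 36.64 TPM in replicate 2, from expected counts of 2677 and 3562. The values were close, with replicate 1 slightly higher. The TPM ratio of Mdm4 to Mdm2 was 0.891 and 0.838, below 1 in both pools.

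Mdm4 is known for an exon whose loss ends the reading frame and lowers Mdm4 protein. It is the 68-base exon at chr1:133004654-133004721, and since 68 is no multiple of 3 its skipping shifts the frame. The kept form is shown with the exon in capitals (GENCODE M21 model Mdm4-210), and the skipped form with the bases on either side of the new join in capitals (Mdm4-214, annotated as a target of nonsense-mediated decay). Another form uses a site inside the exon and loses its first 29 bases (Mdm4-203), which are printed last.
Mdm4 exon kept: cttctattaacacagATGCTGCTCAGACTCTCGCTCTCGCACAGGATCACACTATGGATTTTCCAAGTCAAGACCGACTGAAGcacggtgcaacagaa
Mdm4 exon skipped: cttctattaacacaGCacggtgcaacagaa
Mdm4 bases lost in the shortened form: ATGCTGCTCAGACTCTCGCTCTCGCACAG

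The skipped form carried 1.10% of Mdm4 abundance in replicate 1 and 2.16% in replicate 2, with expected counts of 21 and 56. The shortened form carried 2.20% and 2.00%. Forms with an altered exon were thus a small part of Mdm4 RNA in both pools. Of the gene's counts, the skipped form had 0.784% (exact binomial 95% interval 0.486 to 1.20) in replicate 1 and 1.57% (1.19 to 2.04) in replicate 2. These intervals barely overlapped, and replicate 2 was the higher. They cover counting error only, and RNA removed by decay before extraction is not in these shares.

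Most of the remainder of Mdm4 was divided between full coding models and models that keep an intron. Full coding models carried 46.0% and 45.2% of the abundance, nearly all of it in Mdm4-210, a 7105-base model with 489 codons. Retained-intron models carried 42.5% in replicate 1 and 35.2% in replicate 2. These models are short, from 496 to 1950 bases, so that few reads give them a large per-length share. By count, the full coding models held 85.1% (exact binomial 95% interval 83.7 to 86.5) and 84.8% (83.6 to 86.0), and the retained-intron models 12.0% and 10.6%. Here too the intervals leave out the division of reads between models. Coding models with another 3' end or an incomplete coding region carried 8.21% and 8.64% of the abundance, but only 0.971% and 0.926% of the counts. A processed model without a coding region, Mdm4-212, was at 0% in replicate 1 and 6.50% in replicate 2 on 30 counts.

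**Figure D2:**
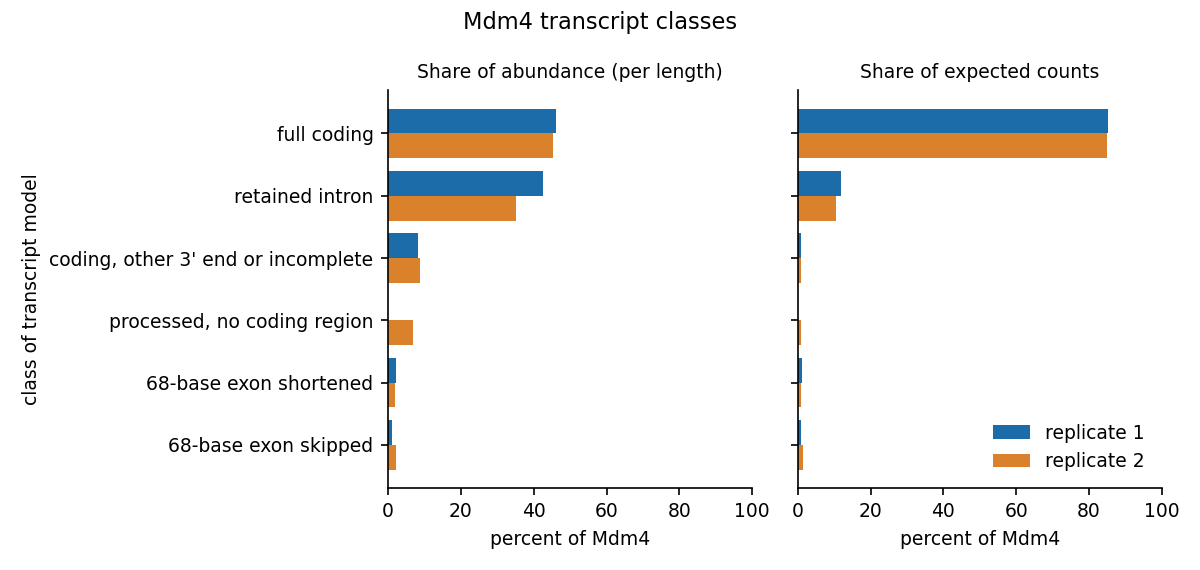
Percent of Mdm4 in each class of transcript model in replicate 1 (blue) and replicate 2 (orange), as deposited abundance per length on the left and in expected counts on the right. Full coding models hold 46.0% and 45.2% on the left but 85.1% and 84.8% on the right, and both classes with an altered 68-base exon are small on both, at most 2.20%.

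Cdkn1a (chr17:29090976-29100727, plus strand) encodes p21, the inhibitor of cyclin-dependent kinases through which p53 stops the cell cycle. It reached 43.69 TPM in replicate 1 and 37.66 TPM in replicate 2, a mean of 40.7 ± 4.26 (SD, n = 2). Replicate 1 was the higher, and the range spanned by Cdkn1a covered the Mdm2 value of replicate 1. Among the CIP/KIP inhibitors, Cdkn1c (p57, an imprinted growth inhibitor) stood far higher at 1315 and 1303 TPM, and Cdkn1b (p27) lower at 15.4 and 15.1 TPM. The 3 genes did not overlap in level.

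Cdkn1a has a distal first exon, 2790 bases before the proximal one, and all its coding models share the same 477-base coding region. The distal exon opens just after a full p53 site that has 1 mismatch to the consensus. The site is shown in capitals with 10 bases on either side, at chr17:29090928-29090947 (RefSeq promoter window, GRCm38.p6). The site begins 51 bases before the distal start and 2841 bases before the proximal one. Beside it stands the other full site found, also with 1 mismatch, 195 bases before the start of Ccng1 at chr11:40755462-40755481, on the minus strand.
Cdkn1a distal promoter site: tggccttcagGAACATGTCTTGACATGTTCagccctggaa
Ccng1 promoter site: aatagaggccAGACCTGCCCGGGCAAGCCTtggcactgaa

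The search took the p53 consensus half-site of 10 bases, a palindrome that needs only 1 strand to be read, and a full site of 20 bases, being 2 adjoining half-sites with at most 1 mismatch. Windows ran from 250 bases before to 50 after a RefSeq start. A full site was in 29 of 32851 windows (0.0883%) and a half-site in 2745 (8.36%). Of 16 windows of 9 of the genes, 2 held a full site, those of Cdkn1a and Ccng1, and 5 held at least 1 half-site. The others with a half-site were Bax, 201 bases before the start, Mdm2, 186 bases before the exon 1 start, and Trp53, 75 bases before the start. Mdm2 had a window at its exon 1 start only, so its second promoter, the one used by p53, was not searched. The windows of Mdm4, Bcl2l1, Trp73, Bbc3 and the proximal Cdkn1a start held no match to these letters. A match describes the sequence and does not show binding, and no window of Pmaip1 was used here.

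The distal model of Cdkn1a carried 68.8% of its abundance in replicate 1 and 72.1% in replicate 2, and the proximal models 23.5% and 22.0%. The distal exon thus led in both pools. By count the gap was smaller, with 52.7% and 56.2% distal against 39.7% and 37.8% proximal. The distal model, Cdkn1a-202, also ends 1021 bases before the main proximal one, so the split between them rests on the 3' end as well as on the first exon. Under release M4 the distal share was 61.5% in replicate 1 and 74.6% in replicate 2.

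Ccng1 (chr11:40748552-40755311, minus strand) encodes cyclin G1, a p53 target that takes part in the feedback on Mdm2. It reached 26.91 TPM in replicate 1 and 31.2 TPM in replicate 2, from expected counts of 1693 and 2784. Replicate 2 was the higher, and the values did not overlap those of Mdm4 above or Bbc3 below. All of its abundance, 100% in each replicate, was given to Ccng1-201, its only coding model, with 294 codons.

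Bax (chr7:45461697-45466898, minus strand) encodes the effector that opens the outer mitochondrial membrane. It was the highest of the 10, with 172.59 TPM in replicate 1 and 174.72 in replicate 2, above 93.8% of detected protein-coding genes. Both pools gave nearly the same level. Of the other effectors, Bok stood at 30.5 and 26.7 TPM and Bak1, the partner with which Bax is redundant in many tissues, at 3.86 and 3.52 TPM. Bax RNA therefore far exceeded Bak1 RNA in this tissue.

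In Bax, the model with 192 codons, Bax-201, carried 73.2% and 73.1% of the abundance. A model that keeps the first intron, Bax-203, carried 17.0% and 16.0%, and one whose last exon begins 4 bases later, Bax-205, carried 8.63% and 9.75%. The bases that Bax-205 lacks are in capitals in the sequence from Bax-201, at chr7:45461963-45461966, and the join of Bax-205 follows with its last exon in capitals.
Bax last exon in Bax-201: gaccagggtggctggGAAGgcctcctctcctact
Bax last exon in Bax-205: gaccagggtggctggGCCTCCTCTCCTACT
Release M4 holds only the first of these models and gave it 100%, so the shares rest on which models were offered.

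Bbc3 (chr7:16308393-16318205, plus strand) encodes PUMA, and Pmaip1 (chr18:66458533-66465565, plus strand) encodes NOXA, both BH3-only proteins that release Bax by binding its restrainers. Bbc3 had 6.70 TPM in replicate 1 and 5.81 in replicate 2, from expected counts of 184 and 222. Pmaip1 had 6.03 and 5.05 TPM, from counts of 289 and 347. Replicate 1 was the higher for both, and the ranges of the genes overlapped. Other BH3-only genes spread around them: Bad, which acts on Bcl2l1, stood at 60.9 and 58.6 TPM and Bcl2l11 (BIM) at 23.8 and 26.4 TPM, while Hrk missed the minimum at 0.67 and 0.35 TPM.

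The full coding model of Bbc3 carried 77.3% and 72.8% of its abundance, and a retained-intron model the larger part of the rest, at 19.3% and 27.2%. For Pmaip1, the model with 3 exons carried 85.3% in replicate 1 and 100% in replicate 2, and the model that skips the middle exon 14.7% and 0%. The skipped model rested on 40 counts in replicate 1, and posterior mean estimates gave it 22.9% and 13.2%. Replicate 1 was the higher by both estimates, and the size of the share depended on the estimate. Release M4 holds only the 3-exon model and gave it 100% in both replicates, so the share also rests on which models were offered. Of the gene's counts by maximum likelihood, the skipped model had 13.8% (exact binomial 95% interval 10.1 to 18.4) in replicate 1 and 0% (0 to 1.06) in replicate 2, intervals that cover counting error but not the division of reads between models.

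Bcl2l1 (chr2:152780668-152831728, minus strand) encodes BCL-XL, which holds Bax and the BH3-only proteins in check. Its level was 81.81 TPM in both replicates, above 84.4% of detected protein-coding genes. Among the survival genes, Mcl1 followed at 54.8 and 57.8 TPM, Bcl2 at 14.2 and 14.1 TPM, and Bcl2l2 at 2.17 and 2.83 TPM. Bcl2l1 thus led this group in both pools. The TPM ratio of Bax to Bcl2l1 was 2.11 and 2.14, that of Bbc3 to Bcl2l1 0.0819 and 0.0710, and that of Pmaip1 to Bcl2l1 0.0737 and 0.0617.

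Bcl2l1 is known for a long form, xL, that protects cells and a short form, xS, that uses an earlier donor site and promotes death. The xS form is not among its 9 annotated models, so it has no value here. Both xL models have 233 codons and differ in their first exon: the upstream one carried 52.3% and 55.5% of the abundance and the downstream one 28.6% and 24.8%. Models that read on into the last intron carried 7.42% and 6.52%. The 63 bases after the shared junction are shown in capitals for the spliced form (Bcl2l1-201, chr2:152782220-152782282) and for the intron form, whose stop codon follows in lower case (Bcl2l1-205, chr2:152829364-152829426).
Bcl2l1 xL: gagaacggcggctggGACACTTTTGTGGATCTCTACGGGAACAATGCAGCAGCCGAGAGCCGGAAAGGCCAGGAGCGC
Bcl2l1 read into the intron: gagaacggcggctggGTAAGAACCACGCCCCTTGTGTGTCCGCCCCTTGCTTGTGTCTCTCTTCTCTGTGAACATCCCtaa

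**Figure D3:**
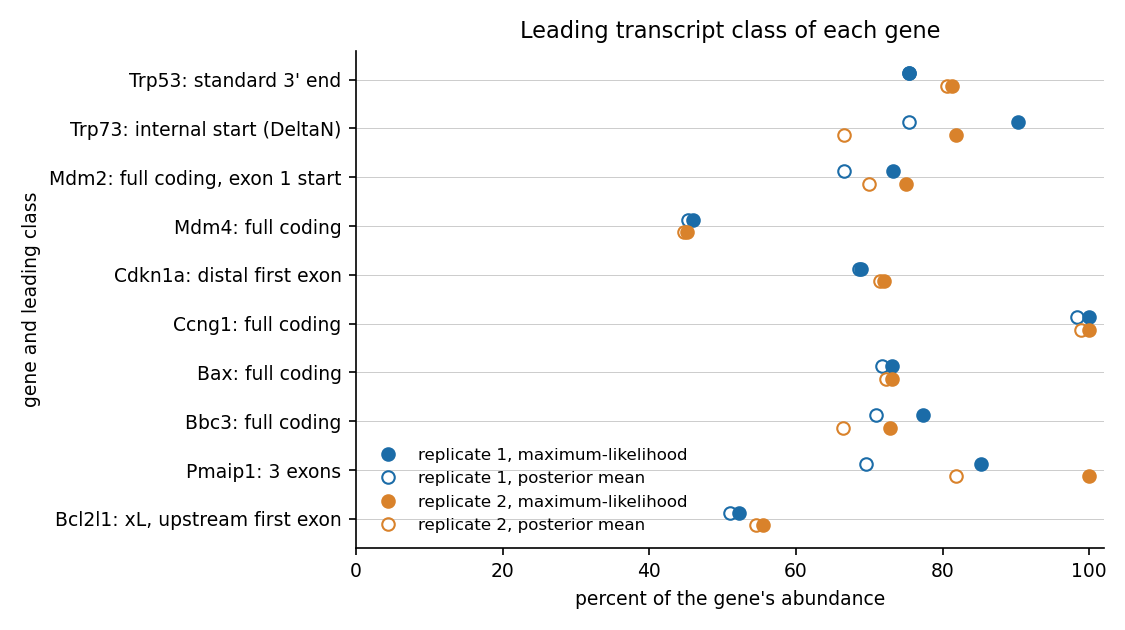
Percent of each gene's abundance in its leading class of transcript model, for replicate 1 (blue) and replicate 2 (orange), by maximum likelihood (filled) and by posterior mean (open). Both estimates lie together for Trp53, Mdm4, Cdkn1a, Bax and Bcl2l1, and lie apart for Trp73 (90.3% against 75.4% in replicate 1) and Pmaip1 (85.3% against 69.5%). Less far apart in replicate 1 are those of Mdm2 (73.3% against 66.6%) and Bbc3 (77.3% against 70.9%).

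Differences between the pools were taken for every gene as replicate 2 over replicate 1. None of the 10 genes differed by 2-fold or more on the log2(TPM + 1) scale, a size reached by 0.157% of detected protein-coding genes. The log2 ratio was -0.36 for Trp73, -0.22 for Pmaip1, -0.21 for Cdkn1a, -0.18 for Bbc3 and -0.07 for Mdm4, was 0.21 for Ccng1, and lay between 0 and 0.02 for Trp53, Mdm2, Bax and Bcl2l1. This sets 1 library against 1 library, so the differences have no replicate check and no p-value.

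The ratio of expected counts, scaled by the summed gene counts, gives each gene an interval for counting error. The exact 95% interval excluded 1 for 5 of the 10 genes, as it did for 30.0% of detected protein-coding genes. Trp73 had a ratio of 0.605 (0.477 to 0.768), Pmaip1 of 0.841 (0.717 to 0.986), Cdkn1a of 0.841 (0.768 to 0.922) and Mdm4 of 0.932 (0.886 to 0.980). Ccng1 was the one gene of the 10 with an interval above 1, at 1.15 (1.08 to 1.22). The interval of Bbc3, at 0.845 (0.692 to 1.03), held 1, as did those of Trp53, Mdm2, Bax and Bcl2l1. The pseudocount of 1 shrinks the log2 ratio of Trp73, which was -0.57 with a pseudocount of 0.1.

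Cdkn1a and Ccng1, both cell-cycle targets of p53 with a full site in their promoter window, thus stood on opposite sides of 1. Scaling to the spike-ins moved the median of all detected genes by -0.12 on the log2 scale. On that scale Ccng1 was at 0.08 and Cdkn1a at -0.36, while Trp53, Mdm2 and Bax changed sign, to -0.09, -0.13 and -0.12.

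**Figure D4:**
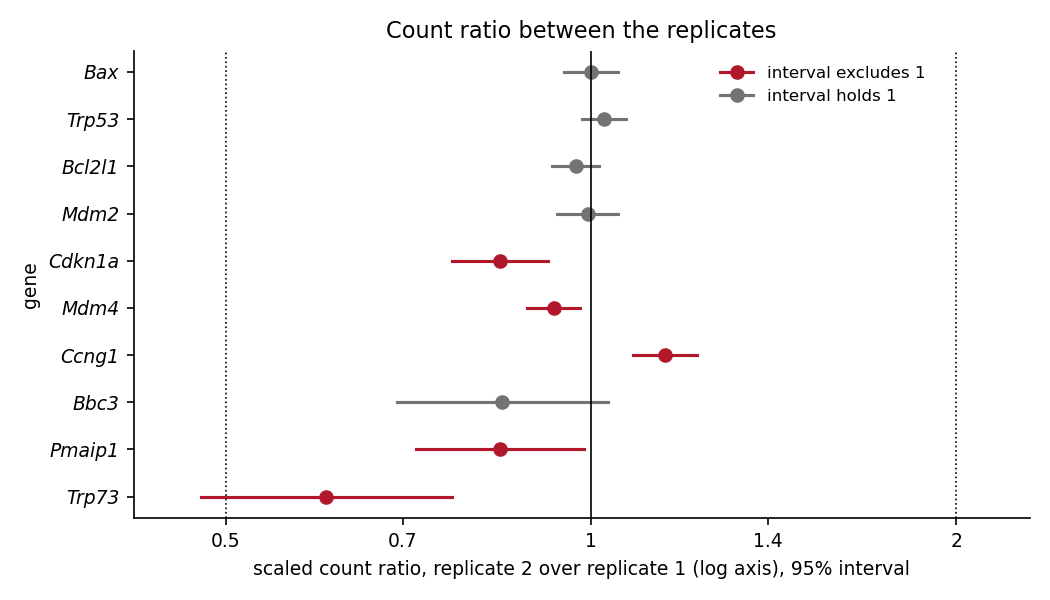
Scaled count ratio of replicate 2 over replicate 1 (log axis) with its exact 95% interval, red where the interval excludes 1, with dotted lines at 2-fold. Trp73 lies lowest at 0.605, Ccng1 alone lies above 1 with its whole interval, and no interval lies past 2-fold as a whole.

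The pools also differed in markers of cell types. All 4 neuron markers (Tubb3, Elavl3, Nefl, Isl1) were lower in replicate 2, where their summed TPM was 242 against 322, and all 4 intervals excluded 1, so they moved in the direction of Trp73. All 4 skeletal muscle markers (Myod1, Myog, Actc1, Tnnc1) were higher in replicate 2, with summed TPM of 295 and 357, in the direction of Ccng1. The intervals of 3 of these 4 excluded 1, while that of Myod1 held 1 (0.946 to 1.15). All 3 forebrain markers, of which 2 were detected, and 3 of 4 erythroid markers were also lower in replicate 2. The facial mesenchyme markers were split, with 3 higher and 3 lower. No marker in these lists was at 0, and the part of these markers in the values of Trp73 and Ccng1 was not tested.

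The wider pathway was described with 80 genes in 11 lists, which include the 10. Of the 70 others, 66 were detected, beside 60.7% of all protein-coding genes. That share also stands beside the counts of detected genes in each list below. The 80 had a median of 22.7 TPM, where all protein-coding genes had 4.79 and the detected ones 21.5. The median thus lay close to that of detected genes in general. None of the 80 differed by 2-fold between the pools on the log2(TPM + 1) scale. That scale shrinks the differences of low genes: Gls2, at 2.13 and 0.89 TPM, had a count ratio of 0.467. The count interval excluded 1 for 25 of the 80, 8 above and 17 below, a share near the 30.0% of detected protein-coding genes.

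Upstream of p53, 14 of 15 activators were detected. The ribosomal proteins Rpl23 (372 and 376 TPM) and Rpl11 (308 and 305 TPM), which bind Mdm2 under ribosomal stress, led the list. They were followed by Usp10, which removes ubiquitin from p53, at 121 TPM in both, and by Trp53bp1, a repair factor that binds p53, at 100 and 97.7 TPM. Atm (14.3 and 13.2 TPM) and Prkdc (8.83 and 7.94 TPM) were the lowest of the damage kinases in the list, and the others stood higher. Cdkn2a, whose p19ARF product holds Mdm2 off p53 under oncogenic stress, had an expected count of 1 in replicate 1 and 0 in replicate 2. A count of 0 allows up to 3 counts, that is 0.0753 CPM (counts scaled to the gene total), in replicate 2.

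All 8 inhibitors of p53 were detected, and 2 ligases stood above Mdm2. Cop1 was at 133 and 104 TPM, with a count ratio of 0.772 (0.734 to 0.812), and Rchy1 at 61.2 and 60.0 TPM. Below Mdm4 came Usp7, which stabilises Mdm2 and p53, at 23.1 and 27.5 TPM, then Trim24 at 22.0 and 22.8, the phosphatase Ppm1d at 21.8 and 20.8, and the deacetylase Sirt1 at 6.54 and 5.74 TPM. Mdm2 and Mdm4 were thus neither the highest nor the lowest of the group.

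Among the 12 cell-cycle and growth targets, all were detected. Plk2, a kinase of the centrosome cycle, stood highest at 158 and 174 TPM, above Cdkn1a in both pools. Sfn (41.4 and 34.7 TPM), Rprm (32.5 and 32.8 TPM) and Sesn1 (30.5 and 33.1 TPM) lay near Cdkn1a and Ccng1, and Sesn2, Plk3 and Zmat3 were the lowest, with Zmat3 at 4.10 and 4.03 TPM. The interval excluded 1 for 8 of the 12, beside 30.0% of detected protein-coding genes, with 5 above and 3 below.

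Of 14 death targets, 13 were detected. Siva1 (172 and 161 TPM) stood beside Bax, followed by Ei24 (92.7 and 94.2 TPM), Phlda3 (43.2 and 41.3 TPM) and Perp (38.0 and 35.4 TPM). The death receptors were low: Tnfrsf10b was at 6.53 and 6.48 TPM, Fas at 1.77 and 2.84, and Eda2r, at 0.54 and 0.39 TPM, missed the minimum. Bbc3 and Pmaip1 thus belonged with the receptors at the low end of this list, and Bax with the high end.

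**Figure D5:**
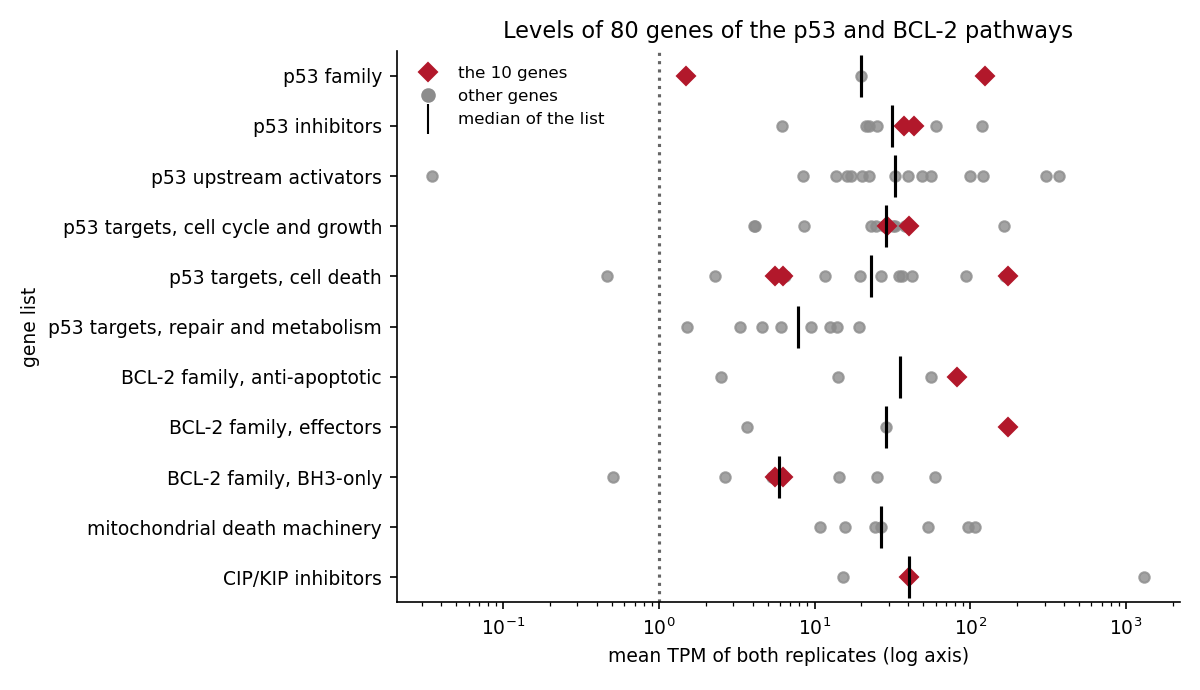
Mean TPM (log axis) of each gene of 11 lists, with the 10 genes as red diamonds, the others as grey points, the median of each list as a bar and the detection minimum of 1 TPM dotted. Bax leads the effectors and, under release M21, the death targets (under M4 Siva1 stands above it, at 176 against 167 TPM), and Bcl2l1 leads the survival genes. Bbc3 and Pmaip1 are the middle genes of the 8 BH3-only genes, so the median of that list, 5.90 TPM, is their own midpoint.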

How the data were processed

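Gene and transcript tables on mm10 were deposited per library for GENCODE releases M21 (used here) and M4, per the deposited descriptions. No aligner, quantifier or strand setting is named (not given in the sources used here). Overlapping genes on opposite strands therefore cannot be told apart. Genes overlapping the 10 were at most at 0.45 TPM. Per the file headers, the tables hold the authors' expected counts, TPM and FPKM, and the transcript tables hold each model's percent of its gene. The deposited TPM includes spike-ins, which took 2.85% and 3.10% of counts and a larger share of TPM, with sums of 65218 and 71718 TPM. Rows naming neither a gene nor a spike-in held 0.000139% and 0.000114% and were left out of library sizes.

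Levels are given as mean ± SD (n = 2). With 2 libraries the smallest p of an exact two-sided sign-flip test is 0.5, so none was computed. The labels call the libraries biological replicates. Replicates were compared by log2(TPM + 1), and expected counts, rounded, by an exact conditional Clopper-Pearson interval at 95%, which covers counting error only since amplified reads are not independent molecules. The interval was tested only on simulated Poisson counts, the counting error that it assumes. That test cannot show how the interval holds for these reads. Transcript models were grouped by hand from the M21 annotation. Promoter windows are RefSeq's. Tools were Python 3.11.15, pandas 2.3.3, scipy 1.17.1 and R 4.3.3, with edgeR 4.0.16 (TMM) and DESeq2 1.42.0 for size factors only.

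Named genes are the 10, all genes of lists of up to 8 genes, and of longer lists the 4 other genes with the highest and the 3 with the lowest mean TPM; a few genes that this rule or the marker lists take are not reported here. The 10 genes and the lists were chosen with earlier results of these data known. Alternatives were the pseudocount, minimum TPM, scaling, annotation release, estimate, FPKM and leaving out a replicate.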

Additional observations from a re-analysis of the deposited data

How the results depend on the processing

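All 10 genes stayed detected under release M4 and by posterior mean TPM, and 9 reached 5 TPM. A minimum of 0.5 TPM or either replicate alone could not lose a gene that had 1 TPM in each library. None passed 2-fold under any pseudocount, filter, scaling or release tried. Under M4, 8 of the 10 genes kept their place in the order by mean TPM, because Cdkn1a rose to 50.1 TPM from 40.7 and passed Mdm2. The mean ratio of Bax to Bcl2l1 was 1.93 under M4 against 2.12. The full coding share of Mdm4 lay between 45.2% and 46.0% with either replicate left out. For the other genes, transcript shares under M4 and by posterior mean were added after seeing the data. The mean share of the internal start of Trp73 was 71.0% by posterior mean against 86.1%, and that of the 3-exon model of Pmaip1 75.7% against 92.7%. The mean share of the full coding model was 68.3% by posterior mean against 74.2% for Mdm2, and 68.6% against 75.1% for Bbc3. Depth limits Trp73, Bbc3 and Pmaip1 most. No paired analysis was possible because both libraries belong to 1 group.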

Other observations

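Of the 7 genes of the mitochondrial death machinery downstream of Bax, all were detected. Diablo, which frees caspases from inhibition, stood at 95.2 and 97.7 TPM. Cycs, the cytochrome c released through Bax, was at 55.9 and 51.1 TPM, and Apaf1, which it activates, at 25.9 and 27.7 TPM. Casp9 (17.2 and 14.2 TPM), the caspase that Apaf1 recruits, and the caspase inhibitor Xiap (10.4 and 11.3 TPM) were lower. The count interval excluded 1 for 2 of the 7, Cycs and Casp9, both lower in replicate 2, a share near the 30.0% of detected protein-coding genes.

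The 8 repair and metabolism targets of p53 had the lower median, 7.78 TPM, beside 28.6 TPM for the cell-cycle targets and 23.2 TPM for the death targets. The repair genes Xpc (19.2 and 19.4 TPM) and Ddb2 (14.2 and 13.7 TPM) led it with Fdxr (13.6 and 11.4 TPM), an electron donor of mitochondria. Polk was at 9.30 and 9.65 TPM, Rrm2b at 6.64 and 5.53, Sco2 at 4.83 and 4.33, and Tigar at 3.28 and 3.33. Gls2, a mitochondrial glutaminase, had 2.13 TPM in replicate 1 and 0.89 in replicate 2 and so missed the minimum. Its count ratio was 0.467 (exact 95% interval 0.314 to 0.688).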
